A study of Saccharomyces cerevisiae with 12 samples.

Results

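The genes described here are 9 heat shock genes of budding yeast and HSF1, the gene of the heat shock transcription factor. They were taken by identifier from a table of 7150 genes, were listed by name and not by a threshold on their values, and all 10 passed the filter on low counts. Saccharomyces cerevisiae cells of mating type a were grown to log phase in YPD with 2% glucose at 30 °C, so no heat shock was applied. RNA was sequenced after removal of ribosomal RNA, in 12 libraries of 4 genotypes.

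The wt group (n = 3) was BY4741, with his3del1 and leu2del0, and the cyc8 group (n = 3) was strain YAFTCD4, which is BY4741 with cyc8::KAN. The snf2 group (n = 2) was FY2083, with his3del200, trp1-del63, lys2del0 and snf2::LEU2. The cyc8 snf2 group (n = 4) was YDB1.7, which adds cyc8::URA3 to that strain. Every group also carried met15del0 and ura3del0. No FY2083 strain with an intact SNF2 was among the samples, so wherever an snf2 group is set against wt or cyc8, the snf2 allele and the strain background cannot be told apart. The comparisons of cyc8 with wt and of cyc8 snf2 with snf2 each stayed within a background and shared no library. Whether replicate libraries were grown as separate cultures is not stated in the labels, and the p-values thus cover the spread among libraries alone, part or all of which may be technical.

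Heat shock proteins are molecular chaperones and membrane proteins whose genes are switched on when proteins unfold. In yeast most of them are read by Hsf1, a trimeric activator that binds inverted repeats of GAA (heat shock elements), by the paired zinc finger activators Msn2 and Msn4, which bind the stress response element AGGGG when protein kinase A activity is low, or by both. Cyc8 (also called Ssn6) is a subunit of the Tup1-Cyc8 corepressor, which has no DNA binding of its own and is brought to promoters by repressors. Snf2 is the motor subunit of SWI/SNF, a complex that moves nucleosomes.

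The promoters of the 10 genes differed in these elements. The 500 bases before each coding start were searched in the reference genome of build R64 for 2 neighbouring heat shock units (GAANNTTC or TTCNNGAA), for 3 such units in a row, and for AGGGG on either strand (CCCCT), letters which are also the core of sites for Nrg1 and related zinc finger proteins. Of 6000 promoters of that length, 35.2% held at least 1 match to the heat shock pair, 1.48% held 3 units in a row, and 34.1% held at least 1 stress response element. HSP12 had 5 stress response elements, a number reached by 0.2% of promoters, and no heat shock pair. HSP42, HSP104 and HSP78 each had 3 heat shock pairs that overlap in a run of alternating units, together with 3 stress response elements, and each of those counts was reached by under 2% of promoters (1.78% and 1.83%). HSP26 and SSA4 each had 1 heat shock pair and 3 stress response elements, and HSP82 had 2 of each. In the windows of SSA3, HSP30 and HSF1 none of these letters were found. The SSA3 and SSA4 windows lay wholly inside the gene models of the table, which begin 536 and 736 bases before the coding starts. The SSA4 matches thus lie inside its model. Beyond the HSF1 window, the 250 bases before the HSF1 model held 1 heat shock pair. Matches are positions of letters, not evidence of binding.

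The 5 elements of HSP12 are shown because this gene had the widest range of the 10. They lie on chromosome VI before the coding start of a gene on the plus strand, the first of them before the gene model of the table and the other 4 inside it, and the capitals mark the element in each 30-base stretch.
HSP12, chrVI:106809-106838: tggcatctgttaAGGGGatatgttgcaact
HSP12, chrVI:106830-106859: gttgcaacttgcAGGGGgcggcacaaaata
HSP12, chrVI:106867-106896: aacgtagtaaagAGGGGaaaaggaaaagga
HSP12, chrVI:107012-107041: ctagatctacagCCCCTggaaaatcgtttg
HSP12, chrVI:107054-107083: gttccggtcgtcCCCCTcttgatctgaaag

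The next stretches end at the first base before the gene model and are shown to set HSP26, which varied widely, beside HSP42, HSP104 and HSP82, which varied less. All are written in the direction of transcription from build R64, HSP26, HSP42 and HSP104 on the plus strand and HSP82 on the minus strand. Heat shock units and stress response elements are in capitals. The stretches hold 200 bases for HSP26 and HSP42 and 150 for HSP104 and HSP82, so matches counted above are missing from some. Left out are stress response elements 479 and 461 bases before the coding start of HSP26, 172 before HSP104 and 396 before HSP82. The heat shock pair 67 bases before the HSP82 coding start is left out too.
HSP26, chrII:381648-381847: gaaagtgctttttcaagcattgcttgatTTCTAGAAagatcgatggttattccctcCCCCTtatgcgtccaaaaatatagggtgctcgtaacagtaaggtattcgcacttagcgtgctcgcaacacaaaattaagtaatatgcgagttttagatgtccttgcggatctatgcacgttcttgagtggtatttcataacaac
HSP42, chrIV:806335-806534: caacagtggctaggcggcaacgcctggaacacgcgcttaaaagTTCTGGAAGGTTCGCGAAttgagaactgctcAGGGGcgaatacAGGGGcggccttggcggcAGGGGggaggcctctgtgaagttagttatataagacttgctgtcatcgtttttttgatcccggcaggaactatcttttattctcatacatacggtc
HSP104, chrXII:88292-88441: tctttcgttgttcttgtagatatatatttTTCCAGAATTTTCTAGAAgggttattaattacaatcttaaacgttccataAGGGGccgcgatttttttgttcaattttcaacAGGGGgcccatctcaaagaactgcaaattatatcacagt
HSP82, chrXVI:98748-98897: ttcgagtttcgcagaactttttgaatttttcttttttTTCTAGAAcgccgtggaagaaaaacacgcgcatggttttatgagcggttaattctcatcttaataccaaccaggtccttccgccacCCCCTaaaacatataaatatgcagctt

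For the corresponding run before HSP78, on the minus strand, 30 bases are shown because the model of the next gene reaches into that region. The capitals mark 3 units of the run, and the ttc just before them, in lower case, is a further unit of it.
HSP78, chrIV:974464-974493: attttccaGAATGTTCTAGAAgtgttcttt

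**Figure D1:**
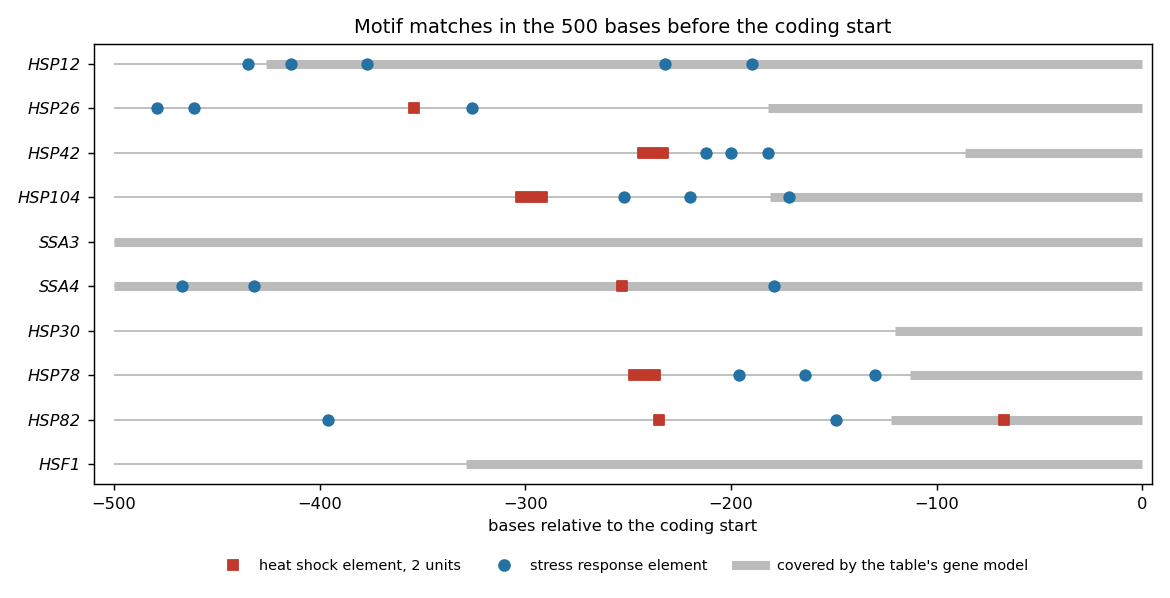
Positions of motif matches in the 500 bases before the coding start of each gene, in bases relative to the start. Squares are heat shock elements of 2 units, circles are stress response elements, and thick grey lines mark bases covered by the gene model of the count table. HSP42, HSP104 and HSP78 carry overlapping squares, HSP12 carries 5 circles, and SSA3, HSP30 and HSF1 carry neither.

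Counts per library ran from 16378131 to 27230568. Levels are given in CPM, the counts of a gene per 1000000 counts of its library after TMM scaling, and levels of different genes are compared only per kilobase of gene model. Differences are log2 fold changes ± SE from edgeR's quasi-likelihood test, fitted on 6171 genes in all 12 libraries with Benjamini-Hochberg adjustment, and a gene is said to have risen or fallen where the adjusted p was below 0.05 and the change at least 2-fold. CYC8 and SNF2 transcripts were still present in the libraries labelled as their mutants. CYC8 had means of 59.3 CPM in cyc8 and 53.2 in cyc8 snf2, beside 77.1 in wt and 61.5 in snf2, where the labels give no cyc8 allele. SNF2 had 66.0 CPM in snf2, beside 80.1 in wt and 79.6 in cyc8, but 109 CPM in cyc8 snf2 (103 to 113), above every wt library (at most 85.3), which goes against the label if the allele removes the transcript. The labels do not say which bases each insertion replaces, so cyc8, snf2 and cyc8 snf2 stand for the libraries so labelled, and every direction below rests on those labels. Mating type a showed in STE2 (138 to 553 CPM as group means) with STE3 at no more than 9.32 CPM in any library. The markers were not level between groups, however. STE2 was 3.72-fold lower in cyc8 than in wt (edgeR adjusted p = 6.16e-09). MFA1, another gene of a cells, had a mean of 266 CPM in wt. Its other means were 34.8 CPM for snf2, 16.1 for cyc8 and 13.2 for cyc8 snf2. The cyc8 mean of MFA1 was 16.6-fold below wt (edgeR adjusted p = 1.69e-11).

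The wt libraries were uneven for these genes. The wt replicate 1 library held the highest wt value of 8 of the 10 genes, was above the mean of the other wt libraries on the log2 scale for all 10, and was at least 2-fold above it for 4 of them. The 10 genes summed to 1719 CPM in that library against 890.4 and 915.2 in replicates 2 and 3. The list of 22 further Msn2 and Msn4 targets was also uneven in wt, with median log2 deviations of 0.78 in replicate 1, 0.31 in replicate 2 and -0.86 in replicate 3. Calls and counts against wt that changed without replicate 1 are therefore given without it as well. Among differences that passed neither way, HSP42 in cyc8 snf2 against wt moved from -0.72 to -0.25 and in cyc8 against wt from -0.03 to 0.44, and HSP78 in snf2 against wt moved from 0.45 to 0.92.

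**Figure D2:**
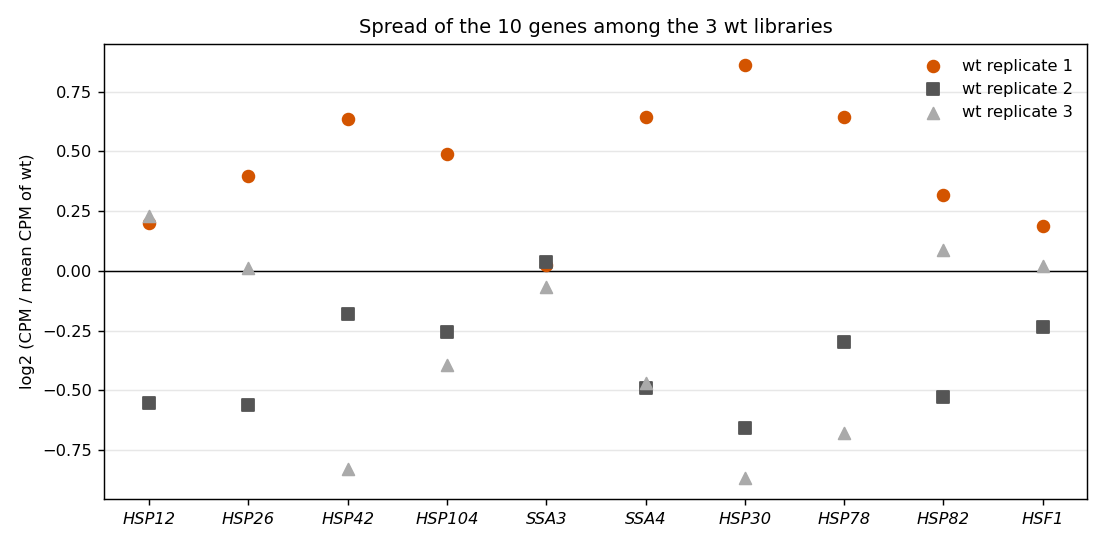
Level of each of the 10 genes in the 3 wt libraries, as the log2 ratio of its CPM to the mean CPM of wt. The circles of replicate 1 are the highest of the 3 for 8 genes, and not for HSP12 and SSA3.

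In wt cells HSP104, HSP30 and HSP82 were the most abundant of the 10 by CPM per kilobase, with group means of 134, 181 and 92.4, and SSA3, SSA4 and HSF1 were the least, with 3.59, 11.6 and 8.90. In the cyc8 libraries HSP12 and HSP26 took the top places, with 1743 and 1761 CPM per kilobase. The summed level of the 10 genes ran from 4441 to 4634 CPM in cyc8, from 839 to 872 in snf2 and from 984 to 1163 in cyc8 snf2. The sum in cyc8 was thus above every library of the other groups, and most of it was HSP12 and HSP26.

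**Figure D3:**
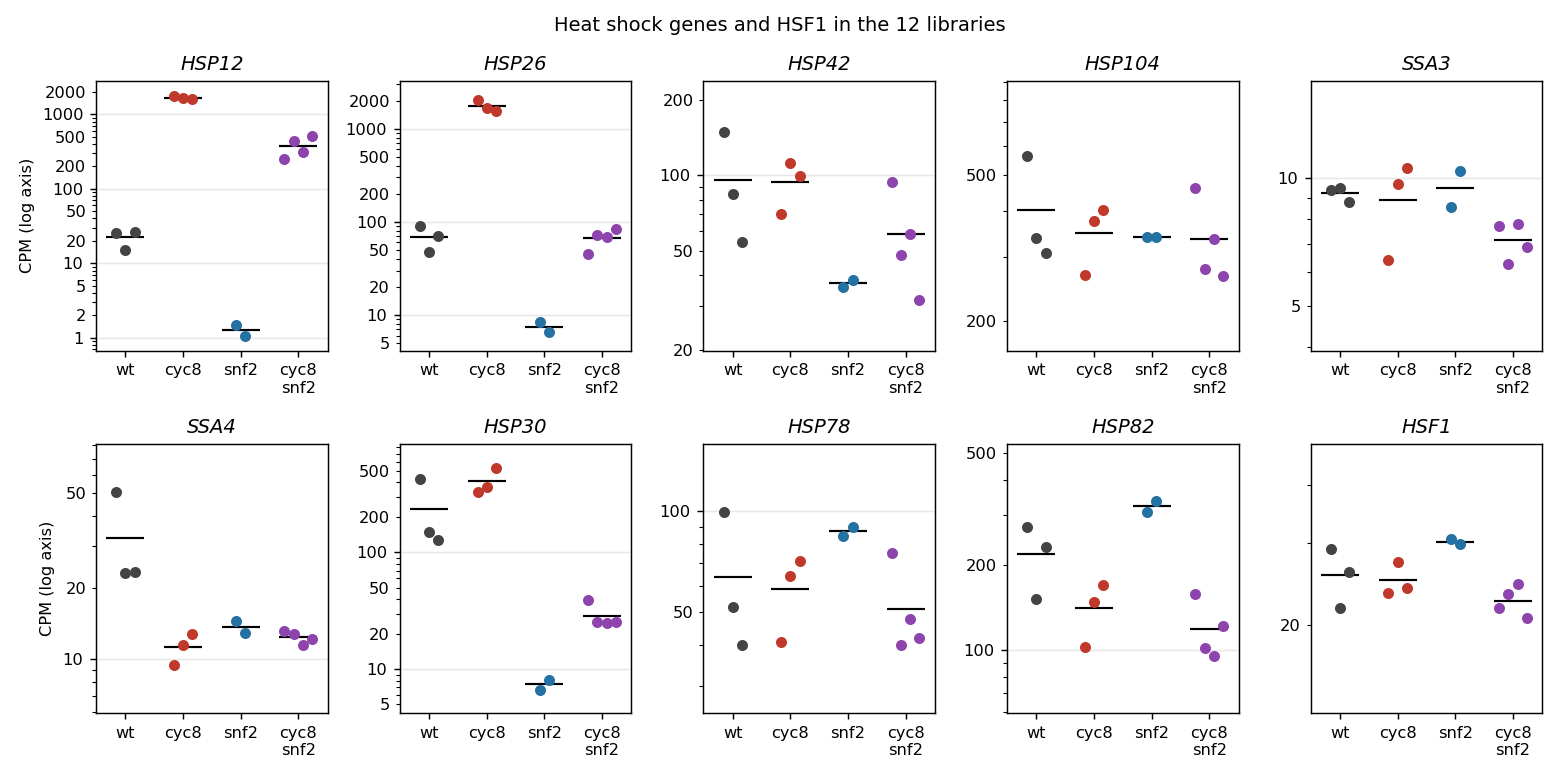
CPM of each gene in every library on a log axis that differs between panels. Points are libraries (3 wt, 3 cyc8, 2 snf2, 4 cyc8 snf2) and horizontal lines are group means. HSP12 shows 4 separate levels, HSP26 and HSP30 are lowest in snf2, SSA4 is highest in wt, and the groups overlap for HSP104.

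HSP12 (YFL014W, chrVI:106830-107790), a small protein that associates with membranes under stress, gave the widest range. Its values were 25.6, 15.2 and 26.1 CPM in wt, 1748, 1659 and 1618 in cyc8, 1.47 and 1.08 in snf2, and 249, 435, 311 and 504 in cyc8 snf2. No 2 groups overlapped, and the order was cyc8, cyc8 snf2, wt, snf2. HSP12 rose in cyc8 against wt by a log2 fold change of 6.23 ± 0.32, or 75.0-fold (edgeR adjusted p = 2.78e-08). Against snf2, the cyc8 snf2 libraries were higher by 8.19 ± 0.45, or 292-fold (edgeR adjusted p = 9.06e-08). The snf2 libraries, with 42 and 28 HSP12 counts, were 17.4-fold below wt (log2 fold change -4.12 ± 0.41, edgeR adjusted p = 2.08e-05). The double mutant was 4.47-fold below cyc8 (-2.16 ± 0.24, edgeR adjusted p = 8.64e-05) and 16.8-fold above wt (4.07 ± 0.28, edgeR adjusted p = 4.07e-07). In RNA from whole cultures, fewer cells that express a gene and less RNA per cell cannot be told apart. The HSP12 model overlaps models on the opposite strand, YFL015C by 134 bases and IES1 by 170 bases, and no label or header states whether the counting used the strand. YFL015C never had more than 21 counts in a library, and IES1 reached 655.

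HSP26 (YBR072W, chrII:381848-382838) encodes a small heat shock protein of the alpha-crystallin family, an oligomer that holds unfolded proteins. It stood at 91.0, 46.9 and 69.7 CPM in wt, 2035, 1668 and 1533 in cyc8, 8.31 and 6.61 in snf2, and 44.8, 72.4, 68.9 and 83.9 in cyc8 snf2. Wild type and double mutant overlapped, with cyc8 above both and snf2 below both. HSP26 rose 25.2-fold in cyc8 against wt (4.65 ± 0.29, edgeR adjusted p = 1.6e-07) and 9.03-fold in cyc8 snf2 against snf2 (3.18 ± 0.33, edgeR adjusted p = 1.9e-05). It was 9.27-fold lower in snf2 than in wt (-3.21 ± 0.34, edgeR adjusted p = 2.91e-05) and 25.9-fold lower in the double mutant than in cyc8 (-4.69 ± 0.26, edgeR adjusted p = 2.85e-07). The double mutant differed from wt by -0.04 ± 0.24 (edgeR adjusted p = 0.909).

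HSP30 (YCR021C, chrIII:155930-157227) encodes a plasma membrane protein that restrains the proton pump Pma1. Its values were 428, 149 and 129 CPM in wt, 331, 366 and 533 in cyc8, 6.70 and 8.14 in snf2, and 39.0, 25.2, 24.7 and 25.5 in cyc8 snf2. The wt and cyc8 ranges overlapped through wt replicate 1, the double mutant was below both, and snf2 was below all. HSP30 fell 31.7-fold in snf2 against wt (-4.99 ± 0.58, edgeR adjusted p = 7.87e-05), 14.3-fold in the double mutant against cyc8 (-3.84 ± 0.40, edgeR adjusted p = 7.39e-05) and 8.22-fold in the double mutant against wt (-3.04 ± 0.39, edgeR adjusted p = 8.49e-05). Without wt replicate 1 the first and the last of these were -4.23 ± 0.30 and -2.28 ± 0.21. Against snf2 the double mutant was 3.86-fold higher (1.95 ± 0.51, edgeR adjusted p = 0.00903), a call lost without snf2 replicate 1 (1.83, edgeR adjusted p = 0.0702). Between cyc8 and wt the difference was 0.80 ± 0.40 and did not pass (edgeR adjusted p = 0.125). Without wt replicate 1 it became 1.56 ± 0.24 and passed (edgeR adjusted p = 0.000453). The HSP30 model shares 87 bases on its own strand with YCR022C, which never exceeded 100 counts, and overlaps HTL1 on the other strand by 145 bases. HTL1 reached 567 counts in a library, while HSP30 had 192 and 212 counts in snf2. Strand use in the counting is not given, and whether reads of HTL1 entered the HSP30 counts was not tested.

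SSA4 (YER103W, chrV:363853-366645) encodes a cytosolic Hsp70 made mainly under stress. Its values were 50.6, 23.0 and 23.4 CPM in wt, 9.44, 11.4 and 12.7 in cyc8, 14.4 and 12.8 in snf2, and 13.1, 12.8, 11.5 and 12.2 in cyc8 snf2. Every mutant library lay below every wt library, and the mutant groups lay close together. SSA4 fell 2.88-fold in cyc8 (-1.53 ± 0.26, edgeR adjusted p = 0.000581), 2.37-fold in snf2 (-1.25 ± 0.30, edgeR adjusted p = 0.00637) and 2.61-fold in the double mutant (-1.39 ± 0.24, edgeR adjusted p = 0.000548), all against wt. Without wt replicate 1 the cyc8 difference was -1.05 ± 0.13 and kept its call. The same step moved the snf2 and double mutant differences to -0.77 (edgeR adjusted p = 0.00141) and -0.91 (edgeR adjusted p = 6.34e-05), both under 2-fold. Leaving out snf2 replicate 2 also ended the snf2 call (-1.17, edgeR adjusted p = 0.0614). The double mutant differed from snf2 by -0.14 ± 0.28 (edgeR adjusted p = 0.715).

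SSA3 (YBL075C, chrII:84418-86984), the other inducible Hsp70 of the set, was the least expressed gene per kilobase in wt. It ran from 8.81 to 9.46 CPM in wt, from 6.41 to 10.6 in cyc8, from 8.55 to 10.4 in snf2 and from 6.28 to 7.79 in cyc8 snf2, and passed in no comparison. Its 2 largest differences were both of the double mutant, -0.40 ± 0.18 against snf2 (edgeR adjusted p = 0.0756) and -0.36 ± 0.16 against wt (edgeR adjusted p = 0.0726). On its own strand the model shares 552 bases, 21.5% of its length, with AAR2, so its counts are uncertain. The coding sequences of SSA3 and SSA4 were 76.6% identical, and each was 73.6% to 74.3% identical to the constitutive SSA1 and SSA2. No stretch of 50 bases in either model occurred elsewhere in the genome. SSA1 and SSA2 themselves stood at group means of 581 to 1111 CPM and 1587 to 2814 CPM and passed in no comparison.

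HSP82 (YPL240C, chrXVI:96377-98747) encodes the inducible form of the chaperone Hsp90. It stood at 273, 152 and 233 CPM in wt, 103, 148 and 170 in cyc8, 309 and 337 in snf2, and 158, 101, 95.2 and 121 in cyc8 snf2. The snf2 libraries were above all others. HSP82 fell 2.71-fold in the double mutant against snf2 (-1.44 ± 0.26, edgeR adjusted p = 0.00086). Against wt the double mutant was lower by less than 2-fold (-0.88 ± 0.23, edgeR adjusted p = 0.00861), a difference that crossed 2-fold without wt replicate 2 (-1.08) or without cyc8 snf2 replicate 1 (-1.05). The cyc8 libraries differed from wt by -0.64 ± 0.25 (edgeR adjusted p = 0.0556), and snf2 from wt by 0.56 ± 0.27 (edgeR adjusted p = 0.143). Its constitutive partner HSC82 had group means of 2913 CPM in snf2 and 2150 in cyc8 snf2, beside 1639 in wt and 1810 in cyc8, and passed in no comparison. The 2 coding sequences were 91.7% identical, and 5.73% of the 50-base words of HSP82 occurred elsewhere in the genome, so reads of that small part cannot be assigned by sequence. The HSP82 model also shares 69 bases on its own strand with CIN2, which never exceeded 501 counts.

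HSP42 (YDR171W, chrIV:806535-807843) encodes another alpha-crystallin chaperone, which gathers misfolded proteins into cytosolic deposits. It ran through 149, 84.5 and 53.9 CPM in wt, 69.9, 112 and 99.7 in cyc8, 35.7 and 38.3 in snf2, and 94.3, 47.8, 58.4 and 31.8 in cyc8 snf2. Only snf2 and wt, and snf2 and cyc8, were apart. HSP42 was 2.59-fold lower in snf2 than in wt (-1.37 ± 0.48, edgeR adjusted p = 0.0444). That call was close to the threshold and was lost without wt replicate 1 (-0.90, edgeR adjusted p = 0.135), without wt replicate 2 (-1.45, edgeR adjusted p = 0.0778) and without snf2 replicate 1 or 2 (edgeR adjusted p = 0.181 and 0.156). The double mutant against wt gave -0.72 ± 0.38 (edgeR adjusted p = 0.135), which passed without cyc8 snf2 replicate 1 (-1.06, edgeR adjusted p = 0.0319).

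HSP104 (YLL026W, chrXII:88442-91439) encodes the cytosolic disaggregase, a ring-shaped ATPase that pulls proteins out of aggregates. It ran from 306 to 565 CPM in wt, from 267 to 401 in cyc8, from 338.4 to 340.1 in snf2 and from 266 to 460.2 in cyc8 snf2. All groups overlapped, no comparison passed, and the fitted differences lay between -0.27 and -0.02. HSP78 (YDR258C, chrIV:971702-974356), its mitochondrial counterpart, ran from 39.9 to 99.6 CPM in wt, from 40.6 to 70.8 in cyc8, from 84.5 to 89.7 in snf2 and from 39.8 to 75.2 in cyc8 snf2. It passed in no comparison. Between the double mutant and snf2, whose ranges were apart, it differed by -0.77 ± 0.36 (edgeR adjusted p = 0.0986), and by -1.02 (edgeR adjusted p = 0.0355) without cyc8 snf2 replicate 1.

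HSF1 (YGL073W, chrVII:368424-371311), the gene of the activator itself, was nearly level. It ran from 21.8 to 29.2 CPM in wt, from 23.5 to 27.4 in cyc8, from 29.9 to 30.6 in snf2 and from 20.7 to 24.5 in cyc8 snf2. The snf2 libraries were above all others by a small margin. The largest difference, -0.42 ± 0.12 in the double mutant against snf2, had an adjusted p below the threshold (edgeR adjusted p = 0.00946) but was only 1.34-fold. The model overlaps YGL074C and YGL072C on the opposite strand by 327 and 309 bases, with no more than 9 and 115 counts. These values are of the HSF1 transcript and say nothing of the activity of its protein.

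**Figure D4:**
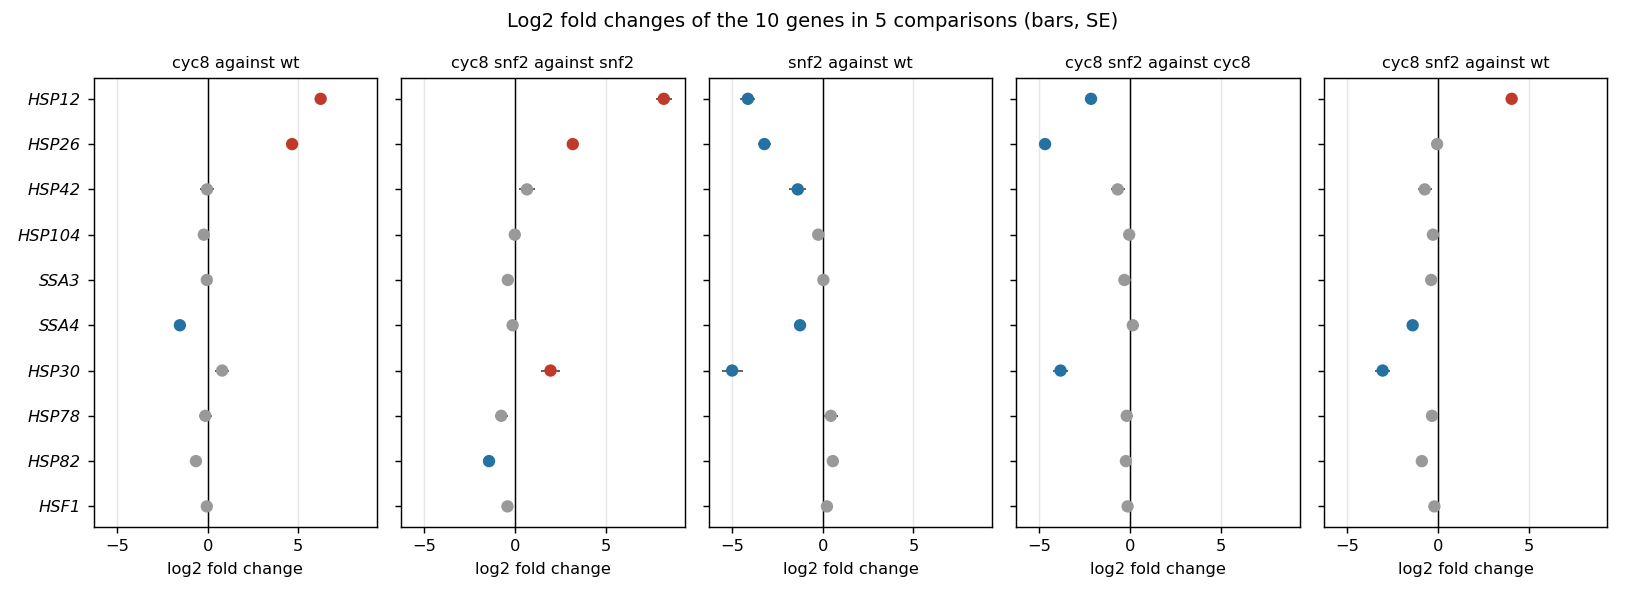
Log2 fold change of each gene in 5 comparisons, with bars for the SE. Red points rose and blue points fell at an adjusted p below 0.05 and at least 2-fold, and grey points did not pass. HSP12 and HSP26 lie to the right in both comparisons of a cyc8 strain with its background, while HSP104, SSA3, HSP78 and HSF1 are grey throughout.

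Counted over the 10 genes, 2 rose in cyc8 against wt, beside 10.4% of all genes tested, and 1 fell, beside 3.48%. Without wt replicate 1 the counts were 3 and 1, HSP30 being added, and the median of the 10 was 0.23. In cyc8 snf2 against snf2, 3 rose, beside 9.12% of all genes, and 1 fell, beside 3.08%. The median log2 fold changes of the 10 were -0.04 and -0.08 there, against -0.05 and -0.03 for all genes, so the rises were those of HSP12, HSP26 and, in the second comparison, HSP30. In snf2 against wt none rose, beside 4.25% of all genes, and 5 fell, beside 5.4%, with a median of -0.75 against 0.02 (-0.36 without wt replicate 1). The 5 were HSP12, HSP26, HSP30, SSA4 and HSP42, and 3 remained called without wt replicate 1, namely HSP12, HSP26 and HSP30. In cyc8 snf2 against cyc8 none rose, beside 0.924%, and 3 fell, beside 3.01%. In cyc8 snf2 against wt 1 rose, beside 9.71%, and 2 fell, beside 3.97%. The 2 became 1 without wt replicate 1 and 4 without cyc8 snf2 replicate 1. Where no member rose, the count was also 0 at an unadjusted p below 0.05 and with DESeq2 and limma-voom.

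The change that went with the cyc8 allele was then compared between the backgrounds, as the difference between the cyc8 snf2 against snf2 change and the cyc8 against wt change. It was larger in the snf2 background for HSP12, by 1.96 ± 0.48 on the log2 scale (edgeR adjusted p = 0.0117), and smaller for HSP26, by -1.48 ± 0.39 (edgeR adjusted p = 0.0162). For SSA4, lower in cyc8 than in wt and level between the FY2083 strains, the difference was 1.39 ± 0.39 (edgeR adjusted p = 0.021). Of all genes tested, 4.2% passed in the positive and 4.7% in the negative direction. The calls rest on 2 snf2 libraries: without replicate 1 those of HSP26 and SSA4 were lost (edgeR adjusted p = 0.0918 and 0.0648), and without replicate 2 those of HSP12 and SSA4 (edgeR adjusted p = 0.0785 and 0.0934). Without wt replicate 1 SSA4 fell below 2-fold (0.91, edgeR adjusted p = 0.00355). With limma-voom HSP12 missed the threshold (1.88, limma-voom adjusted p = 0.0928). HSP30 differed by 1.15 ± 0.63 (edgeR adjusted p = 0.216), and by 0.39 ± 0.34 without wt replicate 1. The snf2 allele is present on both sides of one change and on neither side of the other, as is the FY2083 background, so allele and background cannot be told apart here.

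The other genes of the heat shock and stress responses were read in lists. Of 19 further Hsf1 chaperone targets, co-chaperones and chaperones of cytosol and mitochondria, none rose and 1 fell in cyc8 against wt (median log2 fold change -0.12), and none rose and 1 fell in cyc8 snf2 against snf2 (median -0.45). Of all genes tested, 10.4% rose and 3.48% fell in the first comparison, and 9.12% rose and 3.08% fell in the second. DESeq2 and limma-voom gave the same counts, and at an unadjusted p below 0.05 they were 1 higher and 2 lower in the first comparison and 0 higher and 12 lower in the second. The shares above do not match these unadjusted counts. At an adjusted p below 0.05 and any size, 1477 and 1467 of all 6171 genes were lower in the 2 comparisons. The gene that fell in cyc8 against wt was BTN2, which sorts misfolded proteins (-1.42 ± 0.52, edgeR adjusted p = 0.0433), and that call was lost without wt replicate 1. The gene that fell in cyc8 snf2 against snf2 was STI1, the co-chaperone that joins Hsp70 to Hsp90. STI1 had 262 ± 9.08 CPM in snf2 (n = 2) and 128 ± 7.47 in the double mutant (n = 4), a change of -1.04 ± 0.15 (edgeR adjusted p = 0.000115). It was the single gene of the list that rose in snf2 against wt (1.04 ± 0.16, edgeR adjusted p = 0.000291), where the median was 0.29 and none fell (unadjusted, 8 higher and 0 lower). In that comparison 4.25% of all genes rose and 5.4% fell, and 1065 of 6171 were higher at an adjusted p below 0.05 and any size. In the double mutant none passed in either direction against cyc8 (unadjusted, 0 higher and 1 lower) or against wt (unadjusted, 2 higher and 3 lower). Neither DESeq2 nor limma-voom called any there. Of all genes, 0.924% rose and 3.01% fell against cyc8, and 9.71% rose and 3.97% fell against wt.

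Of 22 further Msn2 and Msn4 targets, 8 rose and 1 fell in cyc8 against wt, with a median log2 fold change of 0.72, and without wt replicate 1 the counts were 11 and 1 and the median 1.0. The shares of all genes tested were 10.4% and 3.48%. A refit without wt replicate 3, the wt library lowest for this list (median log2 deviation -0.86), was not made for the list. The counts without replicate 1 thus show the effect of 1 uneven library and do not bound the result. PHM7 rose from 8.82 ± 3.74 to 317 ± 48.4 CPM (n = 3 each, edgeR adjusted p = 1.42e-07), the chaperone and glyoxalase gene HSP31 from 26.9 ± 4.86 to 491 ± 45.9 CPM (edgeR adjusted p = 2.08e-08), TMA10 by 3.01 ± 0.31 (edgeR adjusted p = 1.61e-05) and the repressor gene XBP1 by 2.92 ± 0.27 (edgeR adjusted p = 4.13e-06). The gene that fell was YGP1, a secreted glycoprotein made when nutrients run low (-1.79 ± 0.27, edgeR adjusted p = 0.000228).

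In cyc8 snf2 against snf2, 13 of the 22 rose, beside 9.12% of all genes, and none fell, with a median of 1.23. The 4 largest changes were of XBP1 (4.91 ± 0.40), PHM7 (4.88 ± 0.37), TMA10 (4.34 ± 0.40) and DDR48 (3.84 ± 0.14), the last a DNA damage and osmotic stress gene (edgeR adjusted p = 7.82e-11). In snf2 against wt none rose and 11 fell, beside 5.4% of all genes, with a median of -1.3, among them YGP1 (-4.29 ± 0.36), DDR2 (-3.12 ± 0.59), the phosphoglucomutase gene PGM2 (-3.02 ± 0.50) and XBP1 (-2.99 ± 0.41). The count without wt replicate 1 was again 11. In the double mutant against cyc8, 5 fell, beside 3.01% of all genes, and none rose, beside 0.924%. The largest fall was of CTT1, the cytosolic catalase (-2.09 ± 0.32, edgeR adjusted p = 0.00112). In the double mutant against wt 5 rose, beside 9.71% of all genes, and 2 fell, beside 3.97%. The median was -0.02, or 0.31 without wt replicate 1. In the comparison between the backgrounds 7 passed, all in the positive direction, beside 4.2% of all genes. The largest were YGP1 (2.70 ± 0.42), PGM2 (2.13 ± 0.60), XBP1 (1.99 ± 0.48) and GAD1 (1.46 ± 0.38), and 5 passed without wt replicate 1. DESeq2 and limma-voom likewise gave 0 wherever edgeR gave none for this list. At an unadjusted p below 0.05 those counts were also 0, except for 4 in the negative direction between the backgrounds.

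Among 16 regulators of these responses MSN4 stood out by its values. Its level was 15.8 ± 1.11 CPM in snf2 (n = 2) and 202 ± 7.91 in cyc8 snf2 (n = 4), beside 64.5 ± 28.5 in wt and 256 ± 22.8 in cyc8 (n = 3 each). MSN4 rose in cyc8 against wt (1.99 ± 0.26, edgeR adjusted p = 9.81e-05) and in cyc8 snf2 against snf2 (3.68 ± 0.33, edgeR adjusted p = 6.48e-06), and it was lower in snf2 than in wt (-2.03 ± 0.32, edgeR adjusted p = 0.000545). MSN4 also rose in cyc8 snf2 against wt (1.65) and passed in the positive direction between the backgrounds (1.69). MSN2 had group means of 45.6 to 78.7 CPM and passed in no comparison. Of the remaining regulators only GIS1, a zinc finger activator of the nutrient response, passed with all libraries in any of the 6 comparisons. GIS1 rose in cyc8 snf2 against snf2 (1.26 ± 0.22, edgeR adjusted p = 0.000736). Of the 16, 1 rose in cyc8 against wt, beside 10.4% of all genes, and 2 rose in cyc8 snf2 against snf2, beside 9.12%. In snf2 against wt 1 fell, beside 5.4%, and in cyc8 snf2 against wt 1 rose, beside 9.71%. Between the backgrounds 1 passed in the positive direction, beside 4.2%, and 2 without wt replicate 1.

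Of 14 constitutive cytosolic chaperone genes (ribosome-bound Hsp70s and their J protein, the nascent chain complex and the CCT ring) and 24 genes of the proteasome and its activator RPN4, none passed in either direction in any of the 6 comparisons with edgeR, DESeq2 or limma-voom. With edgeR the shares of all genes that passed ran from 0.924% to 10.4% higher and from 3.01% to 5.4% lower. At an unadjusted p below 0.05 and any size, the counts over the 6 comparisons were 0 to 6 higher and 0 to 5 lower of the 14, and 0 to 17 higher and 0 to 20 lower of the 24. The proteasome list had 17 lower in cyc8 against wt and 20 lower in cyc8 snf2 against snf2, with medians of -0.24 and -0.31, and the constitutive chaperones had medians of -0.07 and 0.09. The shares above are for the stricter call and do not match these unadjusted counts, for which no share of all genes is given. At an adjusted p below 0.05 and any size, 1477 and 1467 of all 6171 genes were lower in these 2 comparisons with edgeR. Of 10 chaperone genes of the endoplasmic reticulum, none passed except KAR2, the Hsp70 of that compartment, in the comparison between the backgrounds (-1.13 ± 0.19, edgeR adjusted p = 0.000706). Over the 6 comparisons their unadjusted counts were 0 to 5 higher and 0 to 5 lower, and DESeq2 and limma-voom called no other gene of the list.

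**Figure D5:**
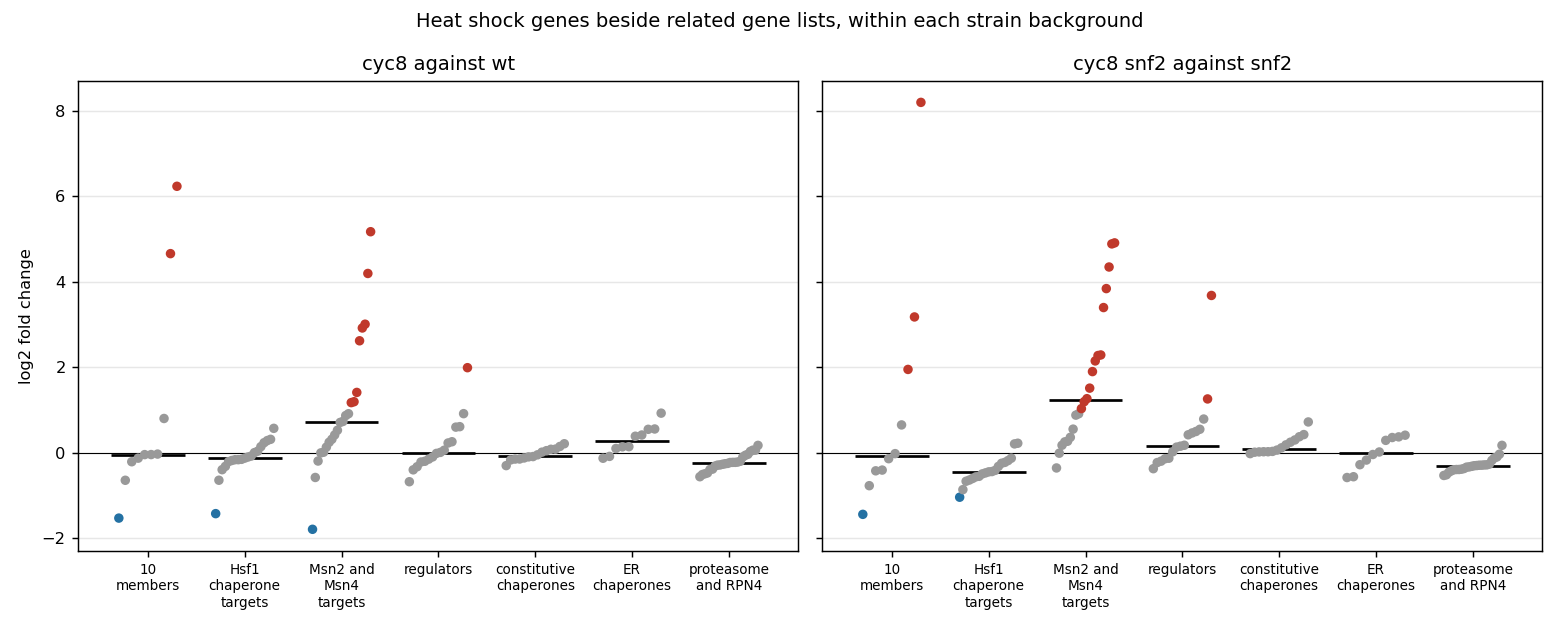
Log2 fold changes of the 10 genes and of 6 lists of related genes in cyc8 against wt (left) and in cyc8 snf2 against snf2 (right). Each point is a gene, red where it rose, blue where it fell and grey where it did not pass, and black lines are medians. The Msn2 and Msn4 targets have medians of 0.72 and 1.23, and those of the Hsf1 chaperone targets are -0.12 and -0.45.

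Of 20 neighbours of the 10 on the chromosomes 19 were tested, of which 2 rose and 1 fell in cyc8 against wt and 2 rose and 2 fell in cyc8 snf2 against snf2, beside 10.4%, 3.48%, 9.12% and 3.08% of all genes tested. HSP12 had YFL015C at its side, the overlapping model on the opposite strand, which rose with it in both (5.34 ± 0.76, edgeR adjusted p = 9.21e-05, and 7.34 ± 1.00, edgeR adjusted p = 7.74e-05). YFL015C never had more than 21 counts in a library and shares 134 bases with the HSP12 model. Strand use in the counting is not given, and whether its counts were reads of HSP12 was not tested. On the other side IES1, a subunit gene of the INO80 remodeller, differed by 0.11 ± 0.08 and -0.06 ± 0.09. YAP6, the gene of a bZIP factor and the next gene upstream of HSP78 on the same strand, rose in cyc8 against wt by 3.24 ± 0.17 (edgeR adjusted p = 2.25e-09) and in cyc8 snf2 against snf2 by 1.68 ± 0.17 (edgeR adjusted p = 3.04e-06). HSP78 passed in neither, at -0.13 ± 0.35 and -0.77 ± 0.36. AFT1, the iron regulator beside HSF1, fell in cyc8 snf2 against snf2 (-1.21 ± 0.18, edgeR adjusted p = 0.000129). The remaining call that fell in both was YDR170W-A beside HSP42 (-1.36 ± 0.21 and -1.65 ± 0.21, edgeR adjusted p = 0.000147 and 2.49e-05).

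Over the 12 libraries, in which genes share the same genotype, strain and depth differences, the genes most like each of the 10 were found among 4757 with a mean of at least 10 CPM, by Pearson's r of log2 CPM. For HSP12 they were DDR48 (r = 0.995), GPP2 (0.993), a glycerol phosphatase gene, and HOR7 (0.992). For HSP26 they were MNC1 (0.989) and the cell wall genes PIR3 (0.982) and TIR3 (0.98). CMK2 (0.971), a calmodulin-dependent kinase gene, ALG11 (0.964) and YRO2 (0.963) were nearest to HSP30, and HAL5 (0.952), IZH2 (0.912) and AMD1 (0.905) to SSA4. GPA2, a G protein gene of the glucose signal, was nearest to HSP42 (0.964), YMR027W to HSP82 (0.93), CCC2 to HSF1 (0.912) and SPO14 to HSP78 (0.911). HSP104 and SSA3 had the weakest leading matches, PIG2 (0.854) and SDH5 (0.893). Among the 10 themselves the highest values were 0.856 for HSP12 with HSP26, 0.822 for HSP26 with HSP30 and 0.815 for HSP42 with HSP30. The lowest was -0.805, for HSP12 with HSP82.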

How the data were processed

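The authors deposited raw counts per gene for 12 libraries, and the submitters' processing notes name build R64, featureCounts, STAR and deepTools, with versions, settings and strand use not given in the sources used here. Of the 7150 gene models 6441 matched a RefSeq locus tag of R64, 4 emptied lines were not used, and the 12 ribosomal RNA genes (2 counts in all) were left out.

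Counts were filtered with filterByExpr, scaled by TMM and fitted in edgeR 4.0.16 (R 4.3.3; robust quasi-likelihood, 12 libraries, 1 mean per group, no replicate block), after tests of the scripts on simulated data. Other settings tried were upper-quartile and RLE scaling, looser and stricter filters, the replicate block, the compared libraries alone, DESeq2 1.42.0, limma-voom 3.58.1, no robust option, other thresholds and leaving out each library. The 10 genes and the gene lists were chosen with earlier results of these data known. Named genes are the 10, up to 4 called genes per list and comparison with the largest change, neighbours, the 3 most alike genes and the Hsp70 and Hsp90 partners. Counts in lists without wt replicate 1 were added after the data were seen. Sequences come from the RefSeq genome of R64.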

Additional observations from a re-analysis of the deposited data

Results flagged for a closer look

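HSP30 in the cyc8 snf2 group had a library far from the others of its group. Replicate 1 had 39.0 CPM while the other 3 lay between 24.7 and 25.5, and the gap to the nearest was 0.946 of the whole range, above Dixon's critical value for 4 samples. Chance flags about 1 in 20 groups.

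The change that went with the cyc8 allele differed between the backgrounds for 3 of the 10 genes by a test of the difference itself (edgeR interaction term, Benjamini-Hochberg adjusted). The difference was 1.96 for HSP12 (adjusted p = 0.0117), -1.48 for HSP26 (adjusted p = 0.0162) and 1.39 for SSA4 (adjusted p = 0.021). Of all genes tested, 4.2% passed in the positive and 4.7% in the negative direction. Without snf2 replicate 1 the calls of HSP26 and SSA4 were lost, and without snf2 replicate 2 those of HSP12 and SSA4. The HSP12 call was also lost with limma-voom (limma-voom adjusted p = 0.0928). HSP12 was higher in 4 of 4 double mutant libraries than in either snf2 library and higher in 3 of 3 cyc8 libraries than in any wt library, as was HSP26. SSA4 was lower in 3 of 3 cyc8 libraries than in any wt library.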

How the results depend on the processing

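Over 1080 alternative values of the 10 genes' fold changes, 1018 kept their direction and their side of the threshold, 22 lost a call, 7 gained one and 33 changed sign. Every sign change was of a gene not called. Counts of members moved by more than 1.5 times as follows. For snf2 against wt, members called lower were 3 with only the libraries compared. Smaller moves were to 4 with upper-quartile scaling, no filter or an adjusted p below 0.01, and to 3 lower in cyc8 snf2 against wt with no minimum fold change. For cyc8 snf2 against snf2, members called lower were 2 with no minimum fold change, HSF1 being added. Between the backgrounds, members in the positive direction were 1 with limma-voom, HSP12 being lost, and at an adjusted p below 0.01 there were 0 in both directions. Leaving out each library in turn gave 2 to 3 higher in cyc8 against wt, 3 to 5 lower in snf2 against wt, 2 to 3 higher and 1 to 2 lower in cyc8 snf2 against snf2, 1 to 4 lower in cyc8 snf2 against wt, and 0 to 2 and 0 to 1 between the backgrounds.

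Of fold changes that changed sign, HSP42 in cyc8 against wt was 0.0093 with RLE scaling, 0.0849 with the replicate block, 0.0161 with only the libraries compared, 0.0086 with DESeq2 and 0.0715 with limma-voom. In the same comparison SSA3 and HSF1 were 0.0002 and 0.0024 with only the libraries compared. HSP104 in cyc8 snf2 against snf2 was 0.0119 with RLE scaling, 0.0853 with the replicate block and 0.0119 with DESeq2. The cause was not tested.

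Leaving out each library in turn, log2 fold changes that crossed 0 ranged as follows. In cyc8 against wt HSP42 ran from -0.32 to 0.44, HSP104 from -0.37 to 0.11, SSA3 from -0.14 to 0.14, HSP78 from -0.37 to 0.35 and HSF1 from -0.14 to 0.06. In snf2 against wt HSP104 ran from -0.41 to 0.076 and SSA3 from -0.11 to 0.18. HSP104 ran from -0.21 to 0.0943 in cyc8 snf2 against snf2, from -0.25 to 0.0293 against cyc8, from -0.46 to 0.057 against wt and from -0.13 to 0.35 between the backgrounds. In cyc8 snf2 against wt HSP26 ran from -0.25 to 0.21 and HSP78 from -0.57 to 0.16.

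Correlations of deviations ran from -0.135 to 0.21 between same-numbered libraries of different groups and from -0.364 to 0.393 between differently numbered ones. With so few libraries a group, these values cannot show whether the numbers mark pairs or shared batches, and the labels do not state it. With the replicate block no count of members moved. Upper-quartile scaling shifted the median of all genes by -0.123 in cyc8 against wt and by -0.127 in cyc8 snf2 against snf2. With it HSP42 in snf2 against wt missed the threshold (adjusted p = 0.0513), as it did with no filter (0.066) and with only the libraries compared (0.0561). Without wt replicate 1 the Hsf1 targets had 0 lower in cyc8 against wt and 2 higher in snf2 against wt. HSP12 had only 28 and 42 counts in snf2, so counting error bears on its folds against that group.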
